A study of Mus musculus with 20 samples.

Results

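The lysyl oxidase family of the mouse has 5 genes, Lox, Loxl1, Loxl2, Loxl3 and Loxl4. They were taken from the liver gene count table by gene name, as 5 of 55421 genes listed and 5 of the 22867 genes tested, and each had counts in 20 of 20 libraries. The family was chosen by the count table's comparison of the HIRA guide with the Rosa26 guide at 3 weeks. Loxl4 was called lower there with all libraries in the fit, a call lost on leaving out some single libraries. Because that comparison chose the family, every member's value in it is a description with no test attached. Each member had 1 entry in the table.

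Lysyl oxidases are secreted copper-dependent enzymes that oxidise lysine residues of collagens and elastin, and the aldehydes so formed condense into the cross-links that make fibres insoluble and stiff. Lox and Loxl1 are made with a propeptide that proteases of the BMP1 family remove, whereas Loxl2, Loxl3 and Loxl4 carry scavenger receptor cysteine-rich repeats in front of the shared catalytic domain. In liver, stellate cells and portal fibroblasts are well known sources of these enzymes, and cross-linked collagen is a hallmark of fibrotic tissue.

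The 20 libraries form 4 groups of 5 livers from wildtype C57BL/6 mice labelled female (on sex, the paper's text and legend differ). All mice, controls included, received retro-orbitally at 6 months of age an AAV8 virus in which the hepatocyte promoter Tbg drives saCas9 and the U6 promoter drives a guide RNA. The guide was directed at either Hira, which encodes a chaperone for histone H3.3, or the Rosa26 locus, so controls also carry Cas9 and a guide. Livers were collected 3 weeks or 6 months later, and the later groups are therefore also older. Editing is directed at hepatocytes while the RNA is from whole liver, so fewer cells of a type and less RNA per cell cannot be told apart.

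Total counts ranged from 19916430 to 24079736 per library. With its own guide Hira was at 3 weeks at 87 to 127 counts per library against 128 to 171, a log2 fold change of -0.48 ± 0.14 (SE) with no overlap of normalised values and an adjusted p of 0.197 (edgeR), which did not pass the threshold of 0.05. At 6 months it was at 109 to 136 counts against 105 to 157, a log2 fold change of -0.10 ± 0.14 with an adjusted p of 0.794 (edgeR quasi-likelihood test, Benjamini-Hochberg). These are mRNA values and do not measure protein. By western blot, the paper reports that HIRA protein was lost with the Hira guide. The library labelled HIRA 6 months replicate 5 had 9 Xist counts and 2041 counts from Y-linked genes, whereas the other 19 libraries had 6286 to 8436 and 0 to 13, which goes against its label. HIRA 6 months replicate 3 also stood apart, by its collagen genes, as described with the members below. The defining hepatocyte genes, such as Alb, were present in every library.

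On GRCm38 (mm10) with the GENCODE M21 annotation, Loxl4 lies on the minus strand at chr19:42593982-42612813 with 4213 bases of exons. Loxl1 is on the minus strand at chr9:58287738-58313186, Loxl2 on the plus strand at chr14:69609068-69695834 and Loxl3 on the plus strand at chr6:83034173-83052562. All are protein-coding, and their merged exons span 3297, 5405 and 4603 bases. The Loxl3 exons overlap those of Htra2, a mitochondrial protease gene on the opposite strand, over 535 bases. Htra2 had 5133 counts in all, 373% of the Loxl3 total, so Loxl3 is uncertain if the authors' counting ignored strand, which is not stated. Within groups, Loxl3 and Htra2 correlated at r = -0.33 over the 20 libraries, and the fitted log2 fold changes of Htra2 lay between -0.070 and 0.089 in the 4 comparisons.

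The promoter of Loxl4 is shown because Loxl4 is the member with the large difference between guides. RefSeq's table for GRCm38.p6 held a promoter for 1 of the 5 members. The 250 bases before its start site, chr19:42612807-42613056 read on the minus strand, follow with a GCGTG core of the hypoxia response element on the reverse strand in capitals, 162 bases before the start.
Loxl4: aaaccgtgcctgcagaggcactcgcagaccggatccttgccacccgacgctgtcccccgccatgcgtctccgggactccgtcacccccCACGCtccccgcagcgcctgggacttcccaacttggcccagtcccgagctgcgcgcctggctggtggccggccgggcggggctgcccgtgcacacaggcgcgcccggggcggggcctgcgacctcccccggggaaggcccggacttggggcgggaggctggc
This stretch is rich in G and C, at 76.0% against a median of 52.4% over all promoters of the table. It holds 27 CpG dinucleotides against a median of 6. Both strands were searched. The GCGTG core occurred in 32.4% of 32851 promoters, so its presence here is common. The other core form ACGTG (in 19.6% of promoters), the E-box CACGTG (7.15%), which contains ACGTG, and the letters TATAAA (13.6%) did not occur in this window. Such matches are descriptions of letters and not of bound sites.

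In control livers Loxl4 was the most abundant family member per length of exon. At 3 weeks with the Rosa26 guide its mean was 2.74 ± 1.40 CPM per kb of exon (SD, n = 5), CPM being counts scaled to a common library total after TMM normalisation. It was followed by Loxl1 at 0.883 ± 0.230, Loxl3 at 0.643 ± 0.102, Loxl2 at 0.507 ± 0.139 and Lox at 0.101 ± 0.035. The lowest Loxl4 library, at 1.80, was above the highest Loxl1 library, at 1.22, and Lox was below every other member in all 5 libraries. The levels of Loxl1, Loxl3 and Loxl2 overlapped, although Loxl1 was above Loxl3 and Loxl3 above Loxl2 in 5 of 5 libraries. In the 6-month controls the order was the same, with Loxl4 at 1.85 ± 1.07, Loxl1 at 0.954 ± 0.166, Loxl3 at 0.673 ± 0.160, Loxl2 at 0.445 ± 0.128 and Lox at 0.065 ± 0.034 CPM per kb. There Loxl4 exceeded Loxl1 in 4 of 5 libraries and the ranges overlapped.

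With the HIRA guide Loxl1 had the highest mean. At 3 weeks Loxl1 was at 0.971 ± 0.284 CPM per kb, with Loxl4 at 0.642 ± 0.251, Loxl3 at 0.626 ± 0.111, Loxl2 at 0.537 ± 0.117 and Lox at 0.065 ± 0.031. Loxl1 was above Loxl4 in 4 of 5 libraries and their ranges overlapped. Loxl4 and Loxl3 were not separable there, since Loxl4 was above Loxl3 in 2 of 5 libraries. At 6 months Loxl1 was at 1.69 ± 1.38, Loxl3 at 0.781 ± 0.280, Loxl4 at 0.679 ± 0.236, Loxl2 at 0.643 ± 0.286 and Lox at 0.149 ± 0.144. Leaving out HIRA 6 months replicate 3, Loxl1 was at 1.08 ± 0.28 and Lox at 0.087 ± 0.040 (n = 4). Over all 5 libraries, neighbours in this order overlapped, with Loxl3 above Loxl4 and Loxl4 above Loxl2 in 3 of 5 libraries each. The deposited FPKM of Loxl3 in the 3-week controls, 0.944 ± 0.289, placed it above Loxl1 at 0.781 ± 0.238, and in the 6-month controls it was likewise above, at 1.05 against 0.806. By FPKM, Loxl4 was below Loxl3 and Loxl2 in the HIRA groups, at 0.578 against 0.754 and 0.648 at 3 weeks and at 0.628 against 1.05 and 0.796 at 6 months. The order of these neighbours thus depended on the unit.

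**Figure D1:**
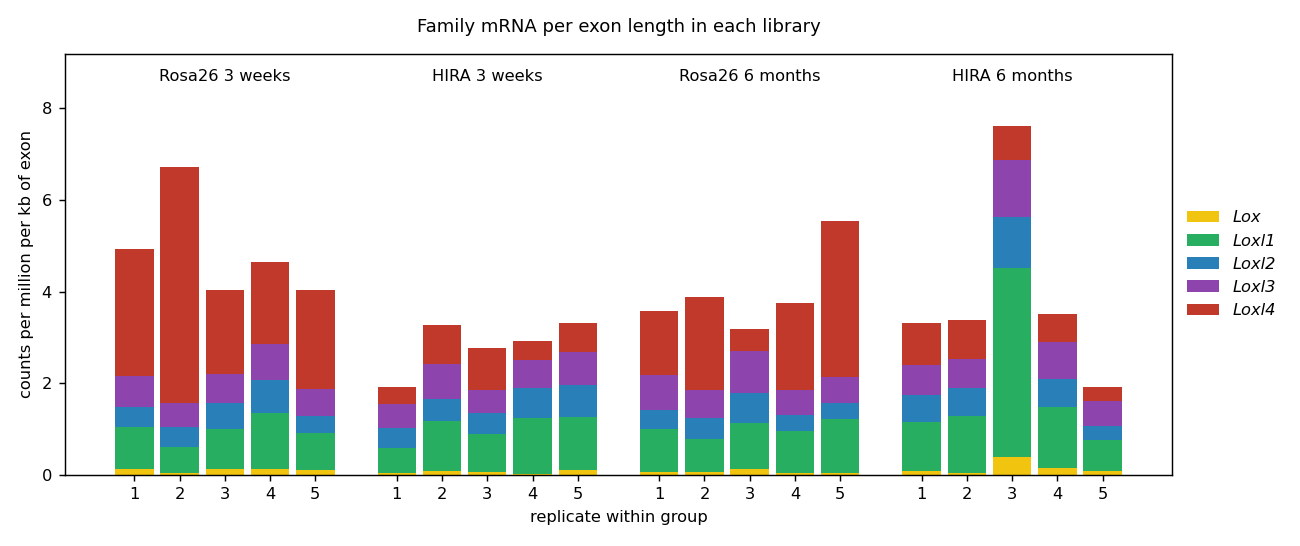
Stacked bars give the 5 family genes in CPM per kb of exon (y axis) for each library (x axis, replicate within group). Loxl4, the top segment, averaged 54.1% and 43.9% of the bar in the Rosa26 groups and 22.5% and 19.0% in the HIRA groups, and the tallest bar, HIRA 6 months replicate 3 at 7.62, is mostly Loxl1.

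As a share of the summed family level per length, Loxl4 made up 54.1% ± 14.3 in the 3-week controls (38.6% to 76.6%) and 22.5% ± 7.38 with the HIRA guide (14.2% to 33.1%). At 6 months the shares were 43.9% ± 17.9 (15.1% to 61.6%) and 19.0% ± 7.06 (9.81% to 27.2%), with the lowest control inside the HIRA range. The summed level was 4.88 ± 1.10 against 2.84 ± 0.57 CPM per kb at 3 weeks. At 6 months it was 3.99 ± 0.91 against 3.95 ± 2.15, and the HIRA total ranged from 1.92 to 7.62.

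Loxl4, which lacks the BMP1-cleaved propeptide of Lox and Loxl1, was counted 231, 434, 168, 168 and 195 times in the 3-week controls, in replicate order, and 34, 78, 80, 40 and 56 times with the HIRA guide. Every HIRA library was below every control. On the log2 CPM scale the controls ran from 2.94 to 4.44 and the HIRA libraries from 0.73 to 1.99. The fitted difference was -2.10 ± 0.41 on the log2 scale, or 4.27-fold lower, and this is the value that chose the gene. With single libraries left out it lay between -2.26 and -1.74. The call itself was lost at least without HIRA 3 weeks replicate 4 or 5, where 0 of all tested genes were called lower. Of all tested genes, 0.114% were called in this comparison and 1.24% had every HIRA library below every control. Among the members it was 1 of 5 in both cases, Loxl4. Since Loxl4 chose the family by this call, these shares are no result about the members. Among genes called lower, Ndrg1 lay just inside the threshold, at a log2 fold change of -1.32 and an adjusted p of 0.0445 (edgeR), and Dio1 just outside, at -1.50 and 0.0541.

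Among the remaining members, 3 were close to 0 in the same comparison. Loxl1 had a fitted log2 fold change of 0.14 ± 0.36, Loxl2 of 0.082 ± 0.27 and Loxl3 of -0.038 ± 0.21. Lox, the founding member, was at 3 to 10 counts with the HIRA guide and 4 to 14 in controls, a log2 fold change of -0.64 ± 0.54, and 2 HIRA libraries were below all controls. For these 4 genes the groups overlapped.

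Clock genes moved with the same comparison. Dbp, a clock output transcription factor, had 30 to 76 counts in the 3-week controls and 187 to 2372 with the HIRA guide, a log2 fold change of 4.55 ± 0.79 with an adjusted p of 0.0251 (edgeR). Of the 14 clock genes listed, 9 had a log2 fold change above 0 and 5 below, and 5 were called higher, Dbp, Ciart, Per3, Tef and Nr1d2, and none lower (edgeR). With libraries left out in turn, the log2 fold change of Dbp stayed between 4.11 and 4.81, while the calls over all genes, 26 with all libraries, ranged from 3 to 30. Of the 14 clock genes 0 were then called without HIRA 3 weeks replicate 4 or 5 or Rosa26 3 weeks replicate 1, 2 or 4. There was 1 without HIRA 3 weeks replicate 1 or Rosa26 3 weeks replicate 3, and there were 2 without HIRA 3 weeks replicate 2. The list's mean centred log2 CPM was -0.58 to -0.25 in the controls and -0.09 to 0.44 in the HIRA libraries. In the 6-month controls Dbp was at 395 to 2211 counts and Loxl4 at 47 to 314. With the HIRA guide at 6 months Dbp was at 96 to 2264 counts and Loxl4 at 26 to 97. Between guides at 6 months 0 of the 14 clock genes were called (edgeR), at a median log2 fold change of 0.06. Within groups, Loxl4 and Dbp correlated at r = -0.62 over the 20 libraries, which share their livers and collection. The part of the clock genes in the Loxl4 difference was not tested.

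**Figure D2:**
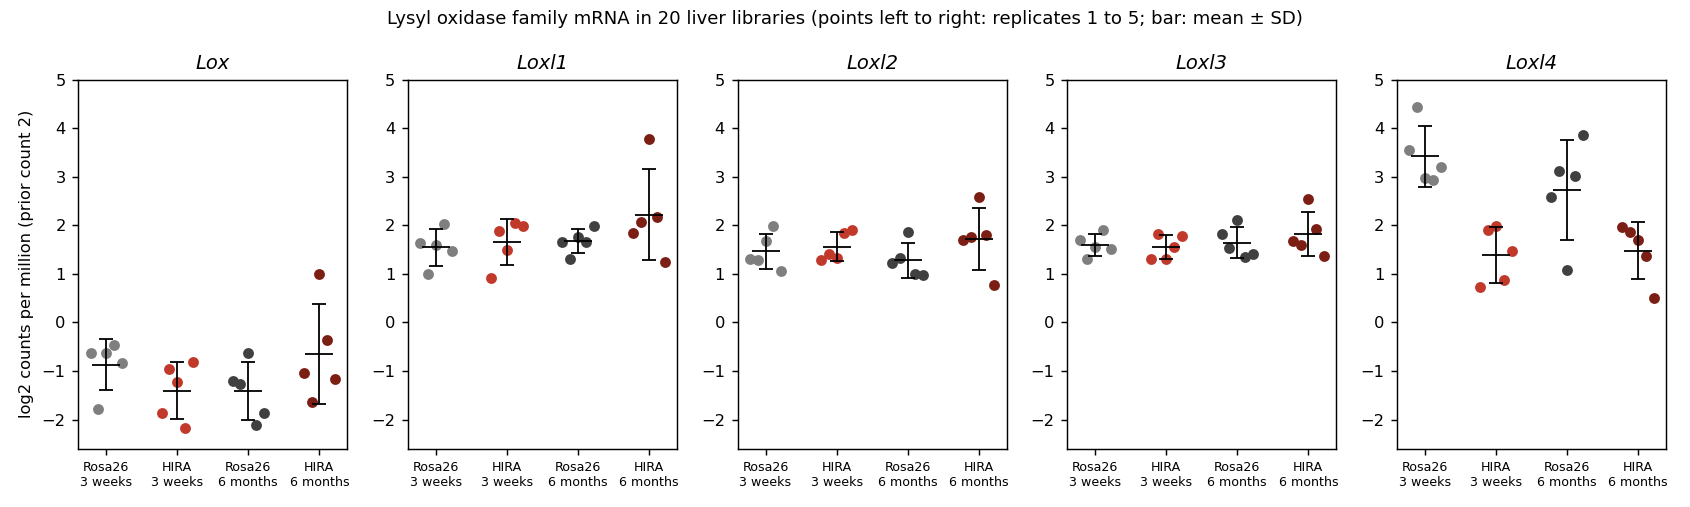
Each point is 1 library, as log2 CPM on a common y axis, by group on the x axis, with black bars for mean ± SD of 5 libraries. Loxl4 separates fully between guides at 3 weeks, whereas at 6 months 1 control at 1.08 lies inside the HIRA range of 0.50 to 1.96, and HIRA 6 months replicate 3 is the highest point of its group for Lox, Loxl1, Loxl2 and Loxl3.

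At 6 months, the comparison that did not choose the gene, Loxl4 was at 139, 185, 47, 173 and 314 counts in controls and 97, 78, 76, 51 and 26 with the HIRA guide. On the log2 CPM scale the controls were at 2.59, 3.12, 1.08, 3.02 and 3.86, and the HIRA libraries at 1.96, 1.87, 1.70, 1.37 and 0.50. Of the 5 controls, 4 were above all HIRA libraries, and Rosa26 6 months replicate 3 fell inside their range. The fitted difference was -1.43 ± 0.41 (SE), 2.70-fold lower, with a p of 0.00196 and an adjusted p of 0.0826 in the edgeR quasi-likelihood test with Benjamini-Hochberg adjustment. It did not pass the threshold of 0.05.

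That call turned on the test and on 1 control. DESeq2 gave -1.46 with an adjusted p of 0.0109, and edgeR without Rosa26 6 months replicate 3 gave -1.68 with an adjusted p of 0.0274, both past the threshold. Across all other alternatives the adjusted p ranged from 0.0559 to 0.233. The low control had the highest lymphocyte and neutrophil marker level of the 20 libraries, a mean centred log2 CPM of 1.40 where the other 6-month controls were at -0.82 to 0.23, and the highest Kupffer cell level, 0.92 against -0.94 to 0.05. Kupffer cell levels reached 0.91 among the 3-week controls, where Loxl4 was at 168 to 434 counts, and 0.85 among the HIRA 6-month libraries. Leaving out the lowest Loxl4 library, the one labelled HIRA 6 months replicate 5, gave -1.26 with an adjusted p of 0.117. The part of these libraries' makeup in the Loxl4 values was not tested.

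In total 0 of 5 members were called at 6 months by edgeR, where 0.332% of all tested genes were. By unadjusted p under 0.05 there were 3 of 5, Loxl4 lower and Lox and Loxl1 higher, against 15.5% of all tested genes. DESeq2 called 1 member, where it called 0.555% of all tested genes, and limma-voom called 0, where it called 0.31% of them. DESeq2 gave an adjusted p to 14391 of the 22867 genes, so its adjusted p and that of edgeR cover different numbers of genes.

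Lox and Loxl1, the propeptide-bearing pair, had higher means with the HIRA guide at 6 months, and 1 library set most of it. Loxl1 was at 72, 51, 77, 66 and 85 counts in controls and 90, 90, 328, 90 and 45 with the HIRA guide, the third replicate standing far above the rest. Its fitted log2 fold change was 0.83 ± 0.35 with an adjusted p of 0.250 (edgeR), and 0.19 without that library. In log2 CPM, 3 HIRA libraries lay above all controls and 1 below all of them.

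Lox was at 8, 7, 13, 3 and 4 counts in controls and 10, 5, 46, 14 and 7 with the HIRA guide. The groups overlapped, and the same replicate 3 was highest. Its log2 fold change was 1.19 ± 0.51 with an adjusted p of 0.262 (edgeR), and 0.40 without that library. At these counts, counting error alone gives a coefficient of variation of 24.7% to 38.9% across the 4 groups, against an observed 34.9% to 96.5%.

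Loxl2, a member with scavenger receptor repeats, was at 53, 52, 83, 41 and 41 counts in the 6-month controls and 81, 72, 143, 69 and 32 with the HIRA guide. The groups overlapped, with 1 HIRA library above and 1 below all controls. Its log2 fold change was 0.53 ± 0.27 with an adjusted p of 0.348 (edgeR). Loxl3 was at 81, 60, 98, 53 and 56 counts against 79, 64, 139, 76 and 49, a log2 fold change of 0.22 ± 0.21 with an adjusted p of 0.690 (edgeR). Without HIRA 6 months replicate 3, Loxl2 was at 0.25 and Loxl3 at -0.025.

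**Figure D3:**
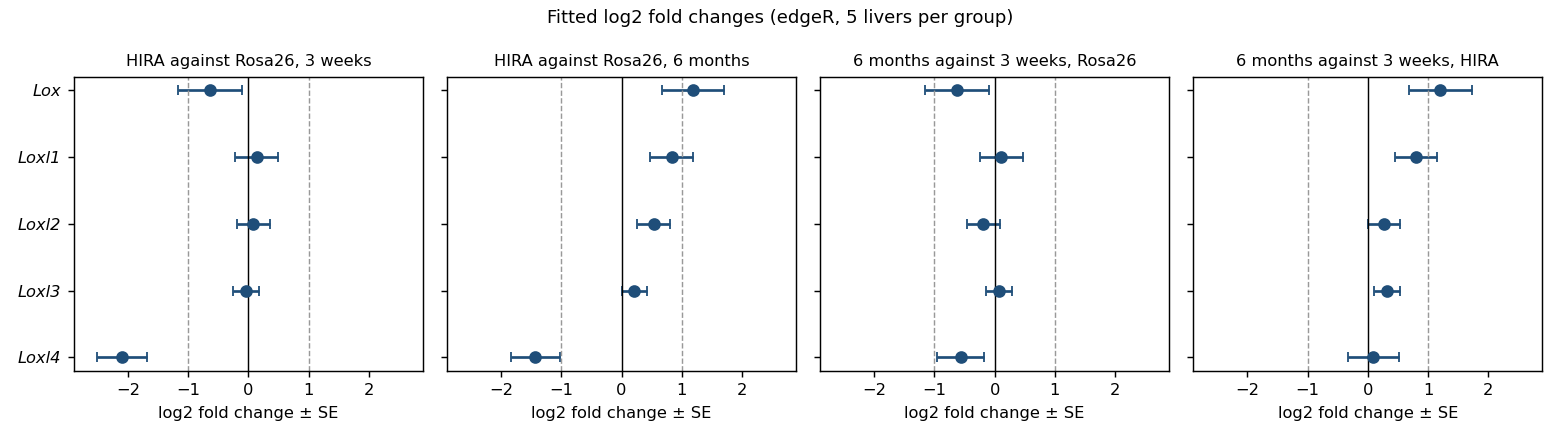
Points are fitted log2 fold changes (x axis) with SE for each member (y axis) in 4 comparisons, and dashed lines mark a log2 fold change of 1 in either direction. Loxl4 is the member below -1 with either time point, at -2.10 and -1.43, and the 3-week values of the comparison that chose it carry no test.

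Between 3 weeks and 6 months, 0 of the 4 members tested were called in control livers, where 0.162% of all tested genes were, and 0 had an unadjusted p under 0.05 (edgeR, all genes 12.8%). Lox was at -0.62 ± 0.53, Loxl1 at 0.11 ± 0.36, Loxl2 at -0.19 ± 0.27 and Loxl3 at 0.067 ± 0.21, with adjusted p from 0.693 to 0.938 (edgeR). Loxl4, whose 3-week libraries chose it, is given without a test, at -0.57 ± 0.39. That value ran from -0.91 without Rosa26 6 months replicate 5 to -0.21 without Rosa26 3 weeks replicate 2. Of its 6-month controls 2 were below all 3-week controls.

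With the HIRA guide, 0 of 4 members were called over time (0.0569% of all tested genes), and Lox and Loxl1 had an unadjusted p under 0.05 (8.95% of all tested genes). Lox was at 1.21 ± 0.52 and Loxl1 at 0.81 ± 0.35, with adjusted p of 0.505 and 0.517 (edgeR). Loxl2 was at 0.26 ± 0.27 and Loxl3 at 0.32 ± 0.21, with adjusted p of 0.839 and 0.713 (edgeR). Without HIRA 6 months replicate 3, Lox was at 0.42, Loxl1 at 0.17, Loxl2 at -0.011 and Loxl3 at 0.091. Loxl4 was at 0.094 ± 0.42 (-0.050 to 0.27 with single libraries left out), and its HIRA libraries spanned 0.73 to 1.99 at 3 weeks and 0.50 to 1.96 log2 CPM at 6 months.

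The change of the guide effect with time was 0.66 ± 0.57 for Loxl4, from -2.10 to -1.43. With single libraries left out it ran from 0.30 (Rosa26 3 weeks replicate 2) to 1.00 (Rosa26 6 months replicate 5). For the other members it was 1.83 ± 0.74 in Lox, 0.70 ± 0.50 in Loxl1, 0.45 ± 0.38 in Loxl2 and 0.25 ± 0.30 in Loxl3. Since these values contain the comparison that chose Loxl4, no test is given. Without HIRA 6 months replicate 3, Lox was at 1.03, Loxl1 at 0.052, Loxl2 at 0.17 and Loxl3 at 0.015.

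Within groups, Loxl4 varied apart from the rest of its family. After subtracting each group's mean, the 6 pairs among Lox, Loxl1, Loxl2 and Loxl3 had Pearson r from 0.62 to 0.86 over the 20 libraries, and from 0.42 to 0.79 without HIRA 6 months replicate 3. The 4 pairs with Loxl4 had r from -0.26 to 0.10, and from -0.37 to 0.06 without that library. Points of 1 library share its tissue piece and its scaling.

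Several matrix and non-hepatocyte lists varied with the first 4 members. The list of 9 fibrillar and basement membrane collagens with elastin had a within-group r of 0.90 with Loxl1, 0.79 with Loxl2, 0.79 with Loxl3, 0.69 with Lox and 0.11 with Loxl4. With HIRA 6 months replicate 3 left out these were 0.78, 0.72, 0.66, 0.45 and 0.086. For 10 stellate cell markers, among them Lrat, Dcn and Pdgfrb, the values were 0.80 with Loxl1, 0.81 with Loxl2, 0.82 with Loxl3, 0.66 with Lox and -0.0044 with Loxl4, and 0.71, 0.74, 0.74, 0.50 and -0.054 without that library. Endothelial markers went with the same members without that library, at 0.81 with Loxl2, 0.73 with Loxl3, 0.50 with Loxl1 and 0.41 with Lox. Over all 20 libraries these were lower, at 0.66, 0.56, 0.32 and 0.29. Kupffer cell and lymphocyte markers reached 0.59 and 0.66 with Loxl2 over 20 libraries, and 0.64 and 0.63 without HIRA 6 months replicate 3. The highest list values for Loxl4 over 20 libraries were those of portal fibroblasts and myofibroblasts, 0.51, and of cholangiocytes, 0.48. Hepatocyte markers gave -0.03 with Loxl4, -0.68 with Loxl2, -0.53 with Loxl3, -0.50 with Loxl1 and -0.40 with Lox. Without HIRA 6 months replicate 3 the last 4 were -0.57, -0.34, -0.25 and -0.15. These are descriptions over 20 libraries, or 19 where that library is left out, with no test.

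**Figure D4:**
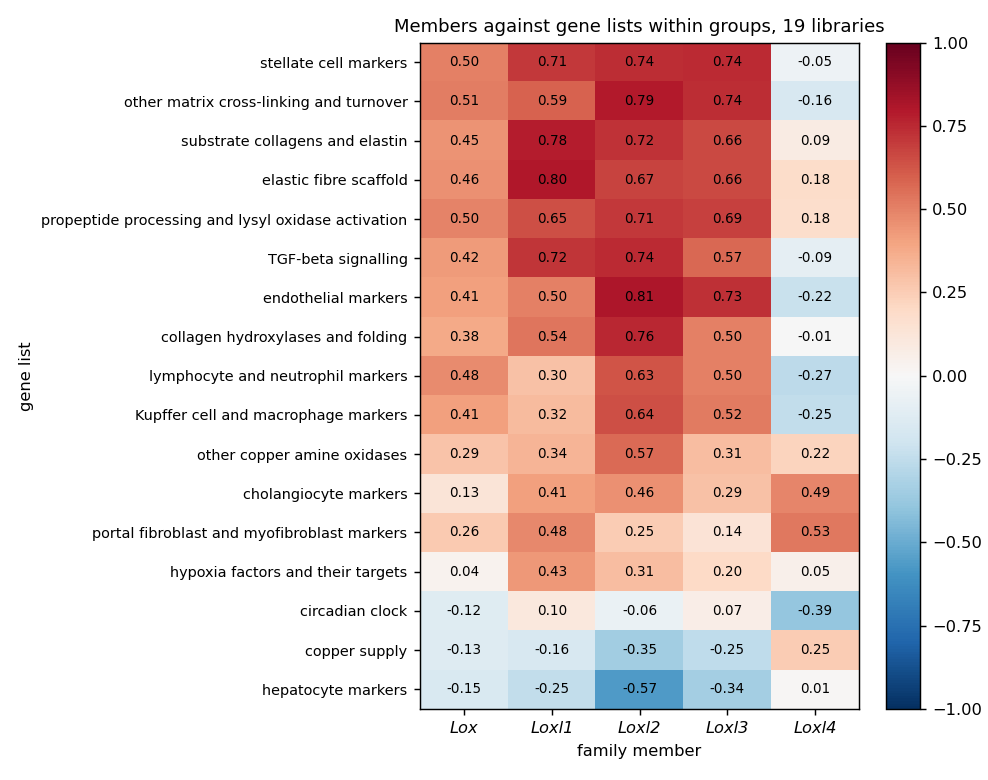
Cells give Pearson r between each member (x axis) and the mean of each gene list (y axis), on log2 CPM centred on group means, over 19 libraries without HIRA 6 months replicate 3. Matrix and stellate lists are at 0.38 to 0.80 for Lox, Loxl1, Loxl2 and Loxl3, while Loxl4 stays between -0.39 and 0.53 over all lists.

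HIRA 6 months replicate 3 carried these matrix genes as well as the 4 oxidases. Col1a1, the main fibrillar collagen chain, had 2350 counts there against 134 to 403 in the other HIRA 6-month libraries and 259 to 652 in the 6-month controls. Eln, the elastin gene, had 491 counts there against 35 to 137 and 76 to 149. Loxl4, at 76 counts, was the median of its group. Its stellate marker level was the highest of the 20 libraries, at 0.85, and its hepatocyte marker level was -0.30, against -0.09 to 0.17 in the rest of its group. The part of cell makeup in the oxidase levels was not tested.

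Of the pathway genes listed, none was called at 6 months by edgeR. For substrate collagens and elastin, 9 of 9 log2 fold changes were above 0 with the HIRA guide, the median was 0.65 and 2 had an unadjusted p under 0.05, whereas 54.3% of all tested genes were above 0, at a median of 0.03. Col5a3, a minor fibrillar chain, was at 0.80 ± 0.29 with an adjusted p of 0.176 (edgeR). Without HIRA 6 months replicate 3, 4 of the 9 genes were above 0 and the median was -0.19. Without the library labelled replicate 5 as well, they were 5 of 9 and 0.020.

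The elastic fibre scaffold, on which Lox and Loxl1 act with fibulins, gave 15 of 15 genes above 0 with a median of 0.49, and 10 of 15 with a median of 0.12 without the same library. Ltbp1, a latent TGF-beta binding protein, was at 0.82 ± 0.33 with an adjusted p of 0.229 (edgeR). Of 12 collagen hydroxylases and chaperones 8 were above 0, at a median of 0.18, and 5 at a median of -0.0045 without that library. Of 10 propeptide proteases and activators 8 were tested, with a median of 0.32, or 0.098 without that library. Adamts2, a procollagen protease, was at 0.86 ± 0.38 with an adjusted p of 0.274 (edgeR). All 10 stellate markers were above 0, at a median of 0.36, and 9 of 10 at a median of 0.18 without the same library. Hand2 alone passed the adjusted p, at 0.78 ± 0.18 and 0.0379 (edgeR), without passing the fold threshold. TGF-beta signalling had 10 of its 11 genes above 0, with or without HIRA 6 months replicate 3, at medians of 0.32 and 0.19.

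Among copper supply genes 6 of 8 were below 0 at 6 months, at a median of -0.18, and likewise 6 of 8 at 3 weeks, at a median of -0.17. Atp7b, the copper pump of hepatocytes, was at -0.51 ± 0.10 with an adjusted p of 0.0149 (edgeR), which passes the p but not the fold threshold. Ccs, the copper chaperone of superoxide dismutase, was at -0.46 ± 0.13 with an adjusted p of 0.0796 (edgeR). The summed level of the 8 genes was 445 to 517 CPM with the HIRA guide and 511 to 629 CPM in controls. Without HIRA 6 months replicate 3 the median was -0.19. The other copper amine oxidases were sparse, with summed levels of 0.74 to 2.46 CPM, and Aoc2 was at 0.91 ± 0.27 with an adjusted p of 0.0996 (edgeR).

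At 3 weeks no gene of the matrix, processing, copper or cell type lists was called by edgeR. The substrate list had a median of 0.04 with 6 of 9 genes above 0, and the elastic fibre list a median of -0.02. Hypoxia factors and their targets had 1 of 14 genes called, Ndrg1, a stress-responsive gene with 915 to 1212 counts in controls and 289 to 509 with the HIRA guide. The call was lost on leaving out each of the 10 libraries in turn, except HIRA 3 weeks replicate 3, with log2 fold changes of -1.41 to -1.20 throughout, and the counts of the groups did not overlap. Of the 14 genes 10 had a log2 fold change above 0. The within-group r of Ndrg1 with Loxl4 was 0.74, whereas the hypoxia list as a whole gave 0.05. The list's mean centred level was -0.09 to 0.09 in controls and 0.01 to 0.11 in HIRA libraries.

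Over time in control livers, no gene of the matrix lists was called, and 4 clock genes were called higher at 6 months, among them Dbp at 4.40 ± 0.79 with an adjusted p of 0.0227 (edgeR). With libraries left out in turn, Dbp stayed between 3.95 and 4.65 and the calls over all genes ranged from 1 to 54. Of the clock calls 0 remained without Rosa26 3 weeks replicate 1, 3 or 4 or Rosa26 6 months replicate 3 or 4, Dbp alone without Rosa26 3 weeks replicate 2, and 2, Dbp and Per3, without Rosa26 6 months replicate 1 or 5. Postn, a matricellular protein that aids lysyl oxidase activation, was at -0.87 ± 0.24 with an adjusted p of 0.116 (edgeR). Over time with the HIRA guide no gene of any list was called.

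Across the 20 libraries, the genes most like Loxl4 among 11921 with a mean of at least 1 CPM were Rfxank, St3gal1, Lgalsl, Stra6l and Zbtb5. Rfxank, a subunit of the RFX transcription complex, correlated with it at r = 0.92 (Pearson) and rho = 0.92 (Spearman), and at r = 0.82 after centring on groups, the highest of all genes compared. St3gal1, a sialyltransferase, was at 0.91, and at 0.80 after centring. Lgalsl, a galectin-like gene, was at 0.89 and 0.81, Stra6l, a retinol-binding protein receptor, at 0.88 and 0.71, and Zbtb5, a zinc finger gene, at 0.88 and 0.68. Without the 2 libraries farthest from the Loxl4 median, Rosa26 3 weeks replicate 2 and Rosa26 6 months replicate 5, r was 0.82 to 0.91. The uncentred values contain the guide difference that chose Loxl4, and they are descriptions.

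Lox lies on the minus strand at chr18:52516067-52529867, with 4778 bases of exons, and had 201 counts in all 20 libraries together. The other totals were 1647 for Loxl1, 1270 for Loxl2, 1377 for Loxl3 and 2670 for Loxl4. Observed coefficients of variation of Loxl4 CPM were 34.7% to 57.8% within groups, against 6.47% to 13.2% from counting alone.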

How the data were processed

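Liver polyA RNA was sequenced in 20 libraries. The authors deposited raw counts per gene, with no normalisation, and FPKM values. The submitters' processing notes name STAR, HTSeq, Cufflinks and mm10 without versions, whereas the paper names HOMER for counting. Of 55421 gene identifiers 54587 (98.5%) matched GENCODE M21. Groups came from sample titles. Genes with at least 10 counts in total were tested with edgeR 4.0.16 (R 4.3.3, TMM, glmQLFit and glmQLFTest, a mean per group over all 20 libraries). A call needed a Benjamini-Hochberg adjusted p under 0.05 and an absolute log2 fold change over 1. SE is the absolute log2 fold change divided by the root of F. Log2 CPM used a prior count of 2. Alternatives used DESeq2 1.42.0, limma 3.58.1 (voom, and log2 of FPKM + 1 or + 0.1), other filters, a replicate block and left-out libraries. Named genes were the members, Hira, sex-linked genes, up to 4 called genes per list or else the 2 with the smallest p, and the 5 most like Loxl4. Htra2, Dio1, Nr1d2, Alb, Lrat, Dcn, Pdgfrb, Col1a1 and Eln were added after their values were seen. Members and lists were chosen with earlier results of these data known. On simulated counts for 22867 genes in the 6-month comparison, 197 of 200 genes changed 4-fold were recovered. These were drawn from genes with a mean of at least 1 CPM, a level that Lox did not reach in any group mean. Recovery of lower genes or of smaller changes was not examined. P-values measure the spread between livers within groups, which the main fit estimates over all 20 libraries, 5 per group.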

Additional observations from a re-analysis of the deposited data

Results flagged for a closer look

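Lox in Rosa26 3 weeks replicate 2 was at -1.78 log2 CPM (4 counts), while the other 4 libraries of that group lay between -0.84 and -0.47. The gap to the nearest library was 0.713 of the group's range, just above Dixon's 95% critical value for 5 samples. Of 20 groups examined for the 5 genes this was the 1 that stood out, and chance gives about 1 in 20. The same library had the highest Loxl4 of the 20 libraries, 434 counts. Whether the low count of Lox alone accounts for the gap was not tested.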

How the results depend on the processing

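At 6 months the Loxl4 difference kept its sign under every alternative run, but 1 member was called instead of 0 with DESeq2 (-1.46, adjusted p 0.0109) and without Rosa26 6 months replicate 3, so leaving out single libraries gave 0 to 1 called members and a Loxl4 log2 fold change of -1.68 to -1.09. With log2(FPKM + 1) the Loxl4 value was -1.11 at 3 weeks and, below the fold threshold, -0.66 at 6 months, on a scale that shrinks low genes. At 6 months Loxl3 reversed to -0.025 without HIRA 6 months replicate 3 (0.35 at most when single libraries were left out), -0.024 with FPKM + 1 and -0.087 with FPKM + 0.1. Over time, values near 0 reversed in controls for Loxl1 (-0.010 without Rosa26 3 weeks replicate 2, up to 0.25 without others) and Loxl3 (-0.069 without Rosa26 6 months replicate 3, up to 0.15), and with the HIRA guide for Loxl2 (-0.011 without HIRA 6 months replicate 3, up to 0.44) and the untested Loxl4 (-0.050 without HIRA 3 weeks replicate 1, -0.032 without HIRA 6 months replicate 1, up to 0.27). The cause of these changes was not tested. Loxl3 in the 3-week controls was 0.944 as FPKM and 0.643 as CPM per kb. Leaving out HIRA 6 months replicates 3 and 5 together, chosen after seeing the data, gave -1.24 for Loxl4 at 6 months. Replicate numbers are shared between groups, but 14 of 30 same-numbered pairs had a correlation of deviations over 0.1 (mean r 0.091), against 25 of 120 other pairs (mean r -0.024), and since not every pair did they were not treated as pairs. With the replicate block, Loxl4 at 6 months was -1.38 with an adjusted p of 0.101 (edgeR) and no member was called. Across all genes the 6-month calls numbered 76, from 0 in a fit of the 10 libraries alone to 127 with DESeq2. Lox had the fewest counts, 3 to 46 per library.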
